A study of Mus musculus with 7 samples.

Results

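Polycomb repressive complex 2 (PRC2) is the enzyme complex that methylates histone H3 at silenced genes, with EZH2 as its catalytic subunit. Around the core of EZH2, EED, SUZ12 and RBBP4 or RBBP7, accessory subunits bind in alternative sets: JARID2 and AEBP2 in one form, and a Polycomb-like protein (MTF2, PHF1 or PHF19), with or without EPOP, in the other. The data described here are the precipitated RNAs of the 6 genes that encode these subunits, Jarid2, Aebp2, Mtf2, Phf19, Phf1 and Epop. They were chosen as a fixed list of gene names, and their members are the features of the deposited count table that overlapped the gene's GENCODE M21 span (mm10) on its strand. These were 152 of 303889 features, 59 of them exonic (at least 1 base in an annotated exon) and 93 intronic.

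RNA was precipitated from male CAST/B6 mouse embryonic stem cells (the Rosa26-RMCE line) with an antibody to EZH2 and sequenced. The antibody was made against human EZH2 and, as the series title states, cross-reacts with SAFB, a nuclear RNA-binding protein; SAFB proteins are known to favour purine-rich RNA. The groups were SAFB DKO, which lacks Safb and its paralog Safb2 (n = 2, clones 13 and 4), EZH2 KO, which lacks Ezh2 (n = 2, clones 12 and 19), and wild type (WT, n = 3, the parent line and clones 20 and 44). Every group was grown in 15% serum and received doxycycline for 3 days, for a purpose that the labels leave out. Each library was thus 1 clone or the parent line, and the labels do not tie clones of different genotypes to each other. SAFB DKO against WT addresses dependence of the precipitated RNA on the SAFB proteins, and EZH2 KO against WT dependence on EZH2. The direct comparison of both knockouts tests the difference between those effects, and the 3 comparisons share libraries, so they are not independent of each other.

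Total counts ran from 15812517 to 18738499 in SAFB DKO, from 7050832 to 8353603 in EZH2 KO and from 19024702 to 21832539 in WT, so features with few reads were measured least well in EZH2 KO. Column names of EZH2 KO followed a different pattern; if that reflects another sequencing run, genotype and run cannot be told apart. Counts of the targeted genes matched the labels: Safb averaged 1.00 ± 0.581 CPM in SAFB DKO and 200.2 ± 71.9 CPM in WT, and Ezh2 averaged 1.21 ± 1.48 CPM in EZH2 KO and 179.9 ± 19.2 CPM in WT (SD). Safb2 likewise averaged 1.86 ± 1.49 CPM in SAFB DKO and 239 ± 99.2 CPM in WT. In EZH2 KO Safb averaged 299 ± 21.2 CPM and Safb2 682 ± 94.1 CPM, both above WT. Within WT, replicate 3 had 117 CPM of Safb and 124 CPM of Safb2, where replicates 1 and 2 had 239 and 245 CPM and 289 and 302 CPM. Whether these differences bear on EZH2 KO against WT was not tested. CPM are counts scaled to library size (edgeR's cpm), with sizes set by TMM on features outside the authors' filtered peak list. Embryonic stem cell markers summed to 2486 to 2598 CPM in SAFB DKO, 1558 to 1727 CPM in EZH2 KO and 1986 to 2100 CPM in WT, with 11 of 12 genes counted in all 7 libraries; Sox2 had no feature. Trophoblast markers (3 of 6 counted in all libraries, with no feature for Elf5) summed to 77.7 to 78.8, 134 to 147 and 55.8 to 77.4 CPM in SAFB DKO, EZH2 KO and WT, and neural markers (3 of 6) to 80.5 to 81.6, 139 to 156 and 199 to 279 CPM. Fibroblast markers (3 of 8, with Col1a2, Fap and Lum lacking features) summed to 8.34 to 11.8, 5.03 to 10.5 and 9.66 to 14.8 CPM in SAFB DKO, EZH2 KO and WT. Endoderm markers (3 of 6, with Sox17 and Foxa2 lacking features) summed to 9.26 to 10.8 CPM in SAFB DKO, 20.0 to 20.3 CPM in EZH2 KO and 18.5 to 20.8 CPM in WT. Mesoderm markers (2 of 5, with Mixl1 and Mesp1 lacking features) summed to 2.31 to 2.74, 1.05 to 1.10 and 4.33 to 5.88 CPM in the same groups. Whether these shifts bear on the values below was not tested. Because features were called on WT precipitates, a level is that of precipitated RNA in those intervals, and cannot tell apart the amount of a transcript, the number of cells that make it and how much of it was pulled down.

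Sequences from the highest intronic and the highest exonic member feature are given first. Purine-rich letters are marked because SAFB proteins are known to favour such RNA. Whether they bear on the differences between groups was not tested. The highest intronic feature, and the highest of all members, was an Mtf2 interval at chr5:108076762-108078882 on the plus strand, which the basic GENCODE set places in an intron. RefSeq (GRCm38.p6) puts the start of a shorter Mtf2 transcript inside it, as does the comprehensive GENCODE set with a noncoding transcript whose first exon begins at 108078165. The 250 bases before that start (chr5:108077915-108078164, plus strand) are shown with the purine-rich letters GAAGA in capitals. The highest exonic feature was a coding interval of Jarid2 at chr13:44902170-44903247, plus strand, from which the 300 coding bases with the most GAAGA (chr13:44902470-44902769) are shown in the same way.
Mtf2: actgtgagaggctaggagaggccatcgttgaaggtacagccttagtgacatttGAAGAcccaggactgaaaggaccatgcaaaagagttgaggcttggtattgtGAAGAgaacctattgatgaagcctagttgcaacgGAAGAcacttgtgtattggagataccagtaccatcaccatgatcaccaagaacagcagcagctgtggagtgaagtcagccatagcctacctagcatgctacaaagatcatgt
Jarid2: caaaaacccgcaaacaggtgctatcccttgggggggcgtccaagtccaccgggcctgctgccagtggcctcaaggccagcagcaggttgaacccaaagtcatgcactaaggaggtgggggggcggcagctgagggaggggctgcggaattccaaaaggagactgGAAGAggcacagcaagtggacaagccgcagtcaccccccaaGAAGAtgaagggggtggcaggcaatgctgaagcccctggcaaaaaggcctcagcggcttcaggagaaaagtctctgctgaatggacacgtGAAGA
The Mtf2 window held 3 GAAGA on the RNA strand and no TCTTC, the reverse complement, with 58.8% purines. The windows compared were the 250 bases before each of 32851 RefSeq starts. Of these 1.57% held at least as many, 29.0% held at least 1 on the strand of the gene and 49.5% on either strand. They are mostly not precipitated RNA, and no background of intronic features was computed, so enrichment of GAAGA in the Mtf2 interval was not tested. The Jarid2 stretch held 3 as well, and the 1022 coding bases of its feature had 2.94 matches per kb. That was close to the 2.51 per kb pooled over the 14592 exonic features of all genes with at least 500 exon bases, of which 33.5% reached it. Among members with at least 500 exon bases the Mtf2 interval at chr5:108106534-108107170 was densest, with 10.3 per kb; shorter members ranged higher, up to the coding exon of Aebp2 at chr6:140646756-140646894.

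The 6 genes differed widely in level and in where their reads lay. Exonic RNA per kb of feature was highest for Epop (122 ± 12.3 CPM per kb in SAFB DKO, 88.1 ± 0.866 in EZH2 KO and 94.7 ± 9.10 in WT) and Jarid2 (89.9 ± 1.22, 101 ± 8.97 and 92.5 ± 2.92), whose libraries overlapped in WT only. Mtf2 followed with 37.3 ± 0.211, 22.8 ± 3.22 and 27.3 ± 1.14 CPM per kb in SAFB DKO, EZH2 KO and WT. Aebp2 had 10.7 ± 0.704, 6.73 ± 1.13 and 6.13 ± 0.491, and Phf19 had 10.3 ± 0.551, 3.02 ± 0.454 and 4.94 ± 0.669; these 2 genes overlapped in SAFB DKO. Phf1 was lowest, with 2.96 ± 0.212, 1.40 ± 0.970 and 2.52 ± 0.448 CPM per kb. Of the 152 features 110 had a mean under 5 CPM over the 7 libraries, and the range was 0.180 to 262 CPM. None lay in the authors' short list of 10043 peaks, and 2, both at the far end of Aebp2, were among the 33671 peaks of their filtered list; how the lists were made is not given in the sources used here.

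**Figure D1:**
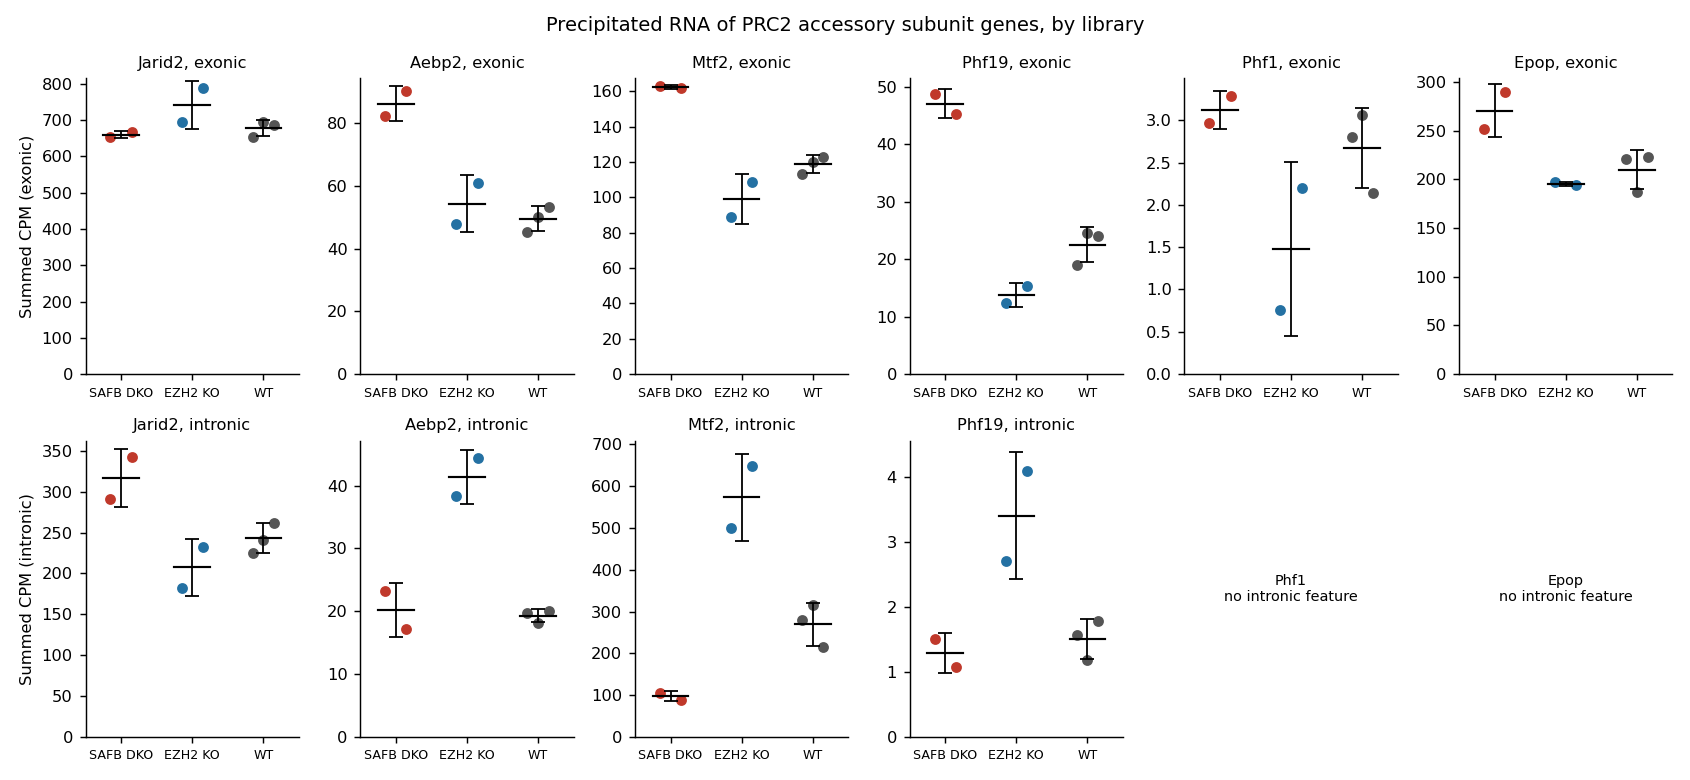
Summed CPM of exonic features (upper row) and intronic features (lower row) of each gene in each library, with SAFB DKO (n = 2), EZH2 KO (n = 2) and WT (n = 3) from left to right; horizontal lines are means and bars SD. Intronic Mtf2 lies at 88.2 to 105 CPM in SAFB DKO, 500.2 to 648 CPM in EZH2 KO and 214 to 315 CPM in WT, whereas exonic Jarid2 overlaps between SAFB DKO and WT.

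Exonic RNA of 4 of the 6 genes rose in SAFB DKO against WT and none fell, by edgeR's quasi-likelihood test with Benjamini-Hochberg adjusted p under 0.05. Over all genes 20.0% of exonic sums rose and 21.8% fell. Intronic RNA rose for Jarid2 and fell for Mtf2 among the 4 genes with intronic features, against 0.840% that rose and 45.1% that fell over all intronic sums. No exonic sum rose in EZH2 KO against WT and that of Phf19 fell (18% rose and 27.2% fell over all genes), and the intronic sums of Aebp2 and Mtf2 rose (26.8% rose and 9.11% fell). SAFB DKO exceeded EZH2 KO in the exonic sums of Aebp2, Mtf2, Phf19 and Epop, none being lower, and in intronic Jarid2, and was lower in intronic Aebp2, Mtf2 and Phf19. The shares over all genes in that comparison were 37.1% higher and 28.9% lower for exonic sums, and 8.21% higher and 50.3% lower for intronic sums. The median log2 fold change of the 6 exonic sums was 0.41 in SAFB DKO against WT and -0.18 in EZH2 KO against WT, beside 0.07 and -0.19 over all exonic sums. That of the 4 intronic sums was -0.07 and 1.10, beside -0.93 and 0.26. Without SAFB DKO replicate 2 or WT replicate 1 the 6 called sums in SAFB DKO against WT became 3, and without EZH2 KO replicate 2 the 3 in EZH2 KO against WT became 6. Scaling on all features moved every log2 fold change by 0.09, -0.13 and 0.22 in SAFB DKO against WT, EZH2 KO against WT and SAFB DKO against EZH2 KO, and column totals moved them by 0.22, -0.25 and 0.47.

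**Figure D2:**
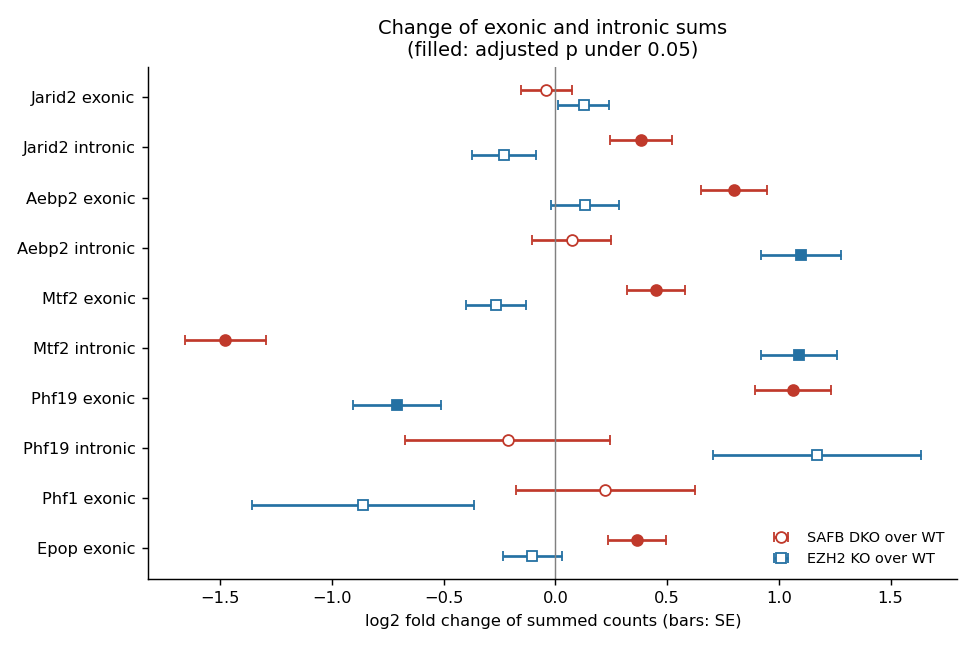
Log2 fold change of the exonic and intronic sums of each gene in SAFB DKO over WT (red circles) and EZH2 KO over WT (blue squares). SE bars are computed from the F-test of edgeR's fit over 7 libraries, and filled symbols have an adjusted p under 0.05. Intronic Mtf2 lies at -1.48 in SAFB DKO and 1.09 in EZH2 KO.

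Of 150 tested features 14 passed the test in SAFB DKO against WT, 19 in EZH2 KO against WT and 50 in SAFB DKO against EZH2 KO. In SAFB DKO against WT 8 of 57 tested exonic features rose and 2 fell, where 4.81% rose and 6.57% fell over all exonic features of 1 gene, and 1 of 93 intronic features rose and 3 fell, where 0.167% rose and 19.7% fell. EZH2 KO against WT had 3 exonic features that rose and 7 that fell (4.74% and 13.6% over all), and 5 intronic ones that rose and 4 that fell (8.75% and 4.26%). SAFB DKO exceeded EZH2 KO in 24 exonic features and was lower in 5 (29.5% and 10.1% over all), and exceeded it in 14 intronic features and was lower in 7 (7.70% and 26.6%). The 2 features below the filter on low counts were exonic parts of Phf19 with 4 and 8 counts over both SAFB DKO libraries, 2 and 4 in EZH2 KO, and 16 and 10 in WT. The median log2 fold change of intronic members was 0.31 in SAFB DKO against WT, where that of all intronic features was -0.53, and 78 of the 93 belonged to Jarid2. That of exonic members was 0.49 beside 0.28 over all exonic features. The medians in EZH2 KO against WT were -0.40 for exonic members (-0.33 with 4 features that had no count in EZH2 KO at their bound) beside -0.56 over all, and -0.21 for intronic members beside 0.02. These counts of calls depended on single libraries. In SAFB DKO against WT the 14 calls became 5 and 4 without SAFB DKO replicate 1 and 2, 32 and 31 without EZH2 KO replicate 1 and 2, and 5, 6 and 8 without WT replicate 1, 2 and 3. The 19 calls in EZH2 KO against WT became 57 without EZH2 KO replicate 2 and 9, 7 and 6 without WT replicate 1, 2 and 3, and in SAFB DKO against EZH2 KO the 50 calls became 79 without EZH2 KO replicate 2.

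Jarid2 (13:44729474-44921643, plus strand) encodes a Jumonji-family protein that helps PRC2 to reach its targets. Its exonic RNA did not differ between groups beyond the spread between libraries when summed over the gene. The 16 exonic features summed to 653 and 666 CPM in SAFB DKO, 695 and 788 CPM in EZH2 KO, and 654, 695 and 687 CPM in WT. Of each knockout 1 library lay within the WT range, the other SAFB DKO library just below it and the other EZH2 KO library above it (log2 fold change -0.04, SE 0.11, adjusted p = 0.80, and 0.13, SE 0.11, adjusted p = 0.39). With DESeq2's size factors the value in SAFB DKO against WT turned to 0.23 and passed the test (adjusted p = 0.040; 0.040 to 0.89 over the alternatives), and with column totals the value in SAFB DKO against EZH2 KO, -0.17 (SE 0.12, adjusted p = 0.26), turned to 0.30 (0.022; 0.022 to 0.90).

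Along the transcript, however, 2 parts differed in opposite ways, a split made after the values were seen and therefore only described. The first 8 exonic features, from 2.27 to 177 kb after the gene start, summed to 440.0 and 431 CPM in SAFB DKO, 613 and 699 CPM in EZH2 KO, and 505, 538.5 and 512 CPM in WT. All SAFB DKO libraries were below and all EZH2 KO libraries above the WT libraries. The last 8, from 178 to 191 kb, summed to 213 and 235 CPM in SAFB DKO, 81.2 and 88.7 CPM in EZH2 KO, and 149, 156 and 175 CPM in WT, so that SAFB DKO was now highest and EZH2 KO lowest. Of the last 8 features 6 had a positive log2 fold change in SAFB DKO against WT and 8 a negative one in EZH2 KO against WT. Of the first 8, 7 were negative in SAFB DKO and 5 positive in EZH2 KO. Over all exonic features the medians were 0.28 in SAFB DKO and -0.56 in EZH2 KO against WT.

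The 2 highest exonic features lay in these parts, 1 in each. The coding interval printed above had 161 and 154 CPM in SAFB DKO, 292 and 316 CPM in EZH2 KO, and 219, 223 and 211 CPM in WT, and the groups did not overlap. It fell in SAFB DKO (-0.47, SE 0.13, adjusted p = 0.016) and rose in EZH2 KO (0.48, SE 0.13, adjusted p = 0.018) against WT, and SAFB DKO was lower than EZH2 KO (-0.95, SE 0.14, adjusted p = 5.2e-05). It held 23.9 ± 1.06% of the exonic counts of Jarid2 in SAFB DKO, 41.2 ± 1.34% in EZH2 KO and 32.1 ± 1.35% in WT. The last-exon interval at 13:44919785-44921534, with 150 coding bases and otherwise 3' untranslated sequence, had 124 and 138 CPM in SAFB DKO, 40.1 and 42.5 CPM in EZH2 KO, and 76.4, 84.9 and 93.0 CPM in WT. It rose in SAFB DKO (0.63, SE 0.16, adjusted p = 0.0075) and fell in EZH2 KO (-1.04, SE 0.17, adjusted p = 6.2e-04). The calls between SAFB DKO and EZH2 KO and the fall of the last exon in EZH2 KO held under every alternative run. The coding interval lost its call in SAFB DKO against WT without SAFB DKO replicate 1 or 2 or WT replicate 1 or 2 (-0.51 to -0.46, adjusted p 0.056 to 0.082) and in EZH2 KO against WT without EZH2 KO replicate 2 or any WT replicate (0.36 to 0.52, 0.058 to 0.074). It also lost the call in SAFB DKO against WT with column totals and with DESeq2 (to -0.22, adjusted p up to 0.36). In EZH2 KO against WT it also lost the call with TMM on all features, column totals and a replicate block (to 0.24, adjusted p up to 0.17). The last exon lost its call in SAFB DKO without SAFB DKO replicate 2 or WT replicate 1 (0.52 to 0.55, 0.072 to 0.10).

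**Figure D3:**
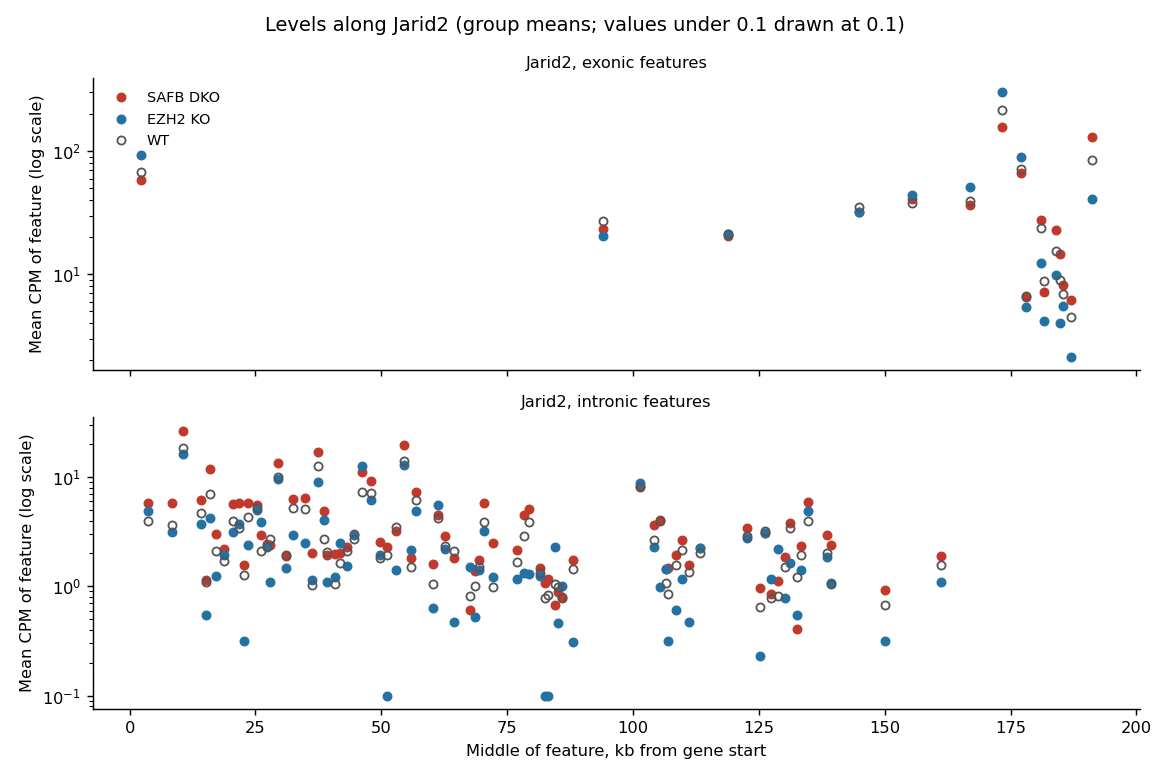
Mean CPM (log scale) of every exonic feature (upper panel) and intronic feature (lower panel) of Jarid2 by the distance of its middle from the gene start in kb, for SAFB DKO (red, n = 2), EZH2 KO (blue, n = 2) and WT (open, n = 3). EZH2 KO is highest at the coding interval near 173 kb (304 CPM) and lowest at the last exon (41.3 CPM).

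Introns of Jarid2 held 78 features, more than all other members together, and 32.4 ± 2.20% of its counts in SAFB DKO, 21.8 ± 1.36% in EZH2 KO and 26.3 ± 1.11% in WT. Their sum was 291 and 342 CPM in SAFB DKO, 183 and 232 CPM in EZH2 KO, and 225, 241 and 262 CPM in WT. SAFB DKO lay above WT in both libraries and EZH2 KO overlapped WT. The sum rose in SAFB DKO (0.38, SE 0.14, adjusted p = 0.040), a call lost without SAFB DKO replicate 2 or WT replicate 1 or 2 (0.23 to 0.37, adjusted p 0.11 to 0.34). It exceeded EZH2 KO by 0.61 (SE 0.16, adjusted p = 0.0038). It was not called in EZH2 KO against WT (-0.23, SE 0.14, adjusted p = 0.22), though without EZH2 KO replicate 2 it was (-0.47, 0.017). No single intronic feature passed the test in SAFB DKO against WT. Of the 78, 68 had a positive log2 fold change, with a median of 0.33 beside -0.53 over all intronic features. The highest one, at 13:44738994-44741276 near the gene start, had 25.5 and 27.7 CPM in SAFB DKO, 16.1 and 16.4 CPM in EZH2 KO, and 17.8, 18.6 and 19.2 CPM in WT (0.52, SE 0.19, adjusted p = 0.068 in SAFB DKO against WT; 0.025 to 0.028 without EZH2 KO replicate 1 or 2). Between the knockouts 12 intronic features were higher and 1 was lower in SAFB DKO than in EZH2 KO. In EZH2 KO against WT 4 intronic features fell, with 0 to 17 counts over both EZH2 KO libraries and 51 to 243 in WT. Against these, 1 intronic feature rose, at 13:44774860-44776255 (12.6 ± 3.18 CPM in EZH2 KO and 7.28 ± 0.480 CPM in WT, adjusted p = 0.047), and its call was lost with any library left out except EZH2 KO replicate 2 (0.45 to 0.85, adjusted p 0.067 to 0.33). An interval at 13:44812555-44812755 had no count in EZH2 KO, 48 in SAFB DKO and 51 in WT. It was at least 5.14-fold higher in SAFB DKO than in EZH2 KO and at least 3.56-fold lower in EZH2 KO than in WT, with 3 counts over the group as the floor, a bound that covers counting error only. The adjusted p against WT was 0.033, and 0.064 to 0.12 without EZH2 KO replicate 1 or any WT replicate. An interval at 13:44813824-44814027 was the only called intronic one that was lower in SAFB DKO (0.680 ± 0.200 CPM) than in EZH2 KO (2.29 ± 0.797 CPM, adjusted p = 0.043), and lost its call under 11 of 12 alternatives.

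Aebp2 (6:140622663-140678472, plus strand) encodes a zinc-finger protein that binds nucleosomes and raises the activity of PRC2. Its exonic RNA rose in SAFB DKO while its intronic RNA rose in EZH2 KO. Exonic features summed to 82.2 and 90.3 CPM in SAFB DKO, 48.0 and 60.9 CPM in EZH2 KO, and 45.4, 50.1 and 53.3 CPM in WT. SAFB DKO was apart from the other groups (0.80, SE 0.15, adjusted p = 6.6e-04 against WT; 0.67, SE 0.17, adjusted p = 0.0035 against EZH2 KO). Where features that crossed an exon boundary were left out these values were 0.43 (adjusted p = 0.11; 8.1e-13 to 0.11 over the alternatives) and -0.20 (0.48; 1.1e-08 to 0.48). Intronic features summed to 23.3 and 17.2 CPM in SAFB DKO, 38.3 and 44.3 CPM in EZH2 KO, and 19.8, 18.1 and 20.0 CPM in WT. Both EZH2 KO libraries were above every WT library (1.10, SE 0.18, adjusted p = 3.9e-04), and SAFB DKO overlapped WT.

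The far end of Aebp2 differed from most of the rest in SAFB DKO against WT, again a split made with the values seen. In EZH2 KO against WT the 19 features up to 38.9 kb after the gene start were mixed, with 8 above 0 and 11 below, 2 rises and 1 fall. In SAFB DKO against WT 6 of these 19 rose and none fell. The largest rise was the coding interval at 6:140633661-140634218, with 11.4 and 14.7 CPM in SAFB DKO, 1.95 and 4.88 CPM in EZH2 KO, and 4.87, 5.08 and 5.33 CPM in WT (1.36, SE 0.30, adjusted p = 0.0033, and 1.13 with adjusted p = 0.058 without SAFB DKO replicate 2). The 4 features beyond 43 kb, 3 intronic and 1 at the annotated end of the gene, were lower in SAFB DKO and higher in EZH2 KO than in WT. Together they had 1.78 and 2.74 CPM in SAFB DKO, 21.1 and 22.7 CPM in EZH2 KO, and 7.49, 5.60 and 6.89 CPM in WT. Of these 4 features 3 fell in SAFB DKO and 3 rose in EZH2 KO against WT, and all 4 were lower in SAFB DKO than in EZH2 KO. The last, at 6:140677804-140679211, ran 739 bases past the annotated end and counts as exonic by its untranslated bases. It had 0.0912 and 0.323 CPM in SAFB DKO (2 and 6 counts), 5.86 and 7.23 CPM in EZH2 KO, and 1.70, 1.18 and 1.57 CPM in WT. It fell in SAFB DKO (-2.84, SE 0.60, adjusted p = 0.0025, and -2.18 with adjusted p = 0.051 without SAFB DKO replicate 1) and rose in EZH2 KO (2.14, SE 0.44, adjusted p = 0.0039). This feature and the intronic one at 6:140673326-140673935 (0.371 ± 0.00832 CPM in SAFB DKO, 3.01 ± 0.857 in EZH2 KO and 1.34 ± 0.268 in WT) are the 2 members in the authors' filtered list.

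The highest intronic interval of Aebp2 lay apart from these and rose in EZH2 KO against WT. At 6:140632082-140633123 it had 5.20 and 2.64 CPM in SAFB DKO, 15.0 and 22.2 CPM in EZH2 KO, and 4.83, 4.09 and 3.86 CPM in WT. The rise over WT was 2.12 (SE 0.31, adjusted p = 2.9e-04), and SAFB DKO was lower than EZH2 KO by a log2 fold change of -2.24 (SE 0.35, adjusted p = 8.7e-05). The highest exonic interval, untranslated sequence at 6:140653343-140654252, had 9.18 ± 0.791 CPM in SAFB DKO, 15.1 ± 3.74 in EZH2 KO and 7.88 ± 0.483 in WT, and its rise in EZH2 KO against WT (0.94, adjusted p = 0.019) lost its call without EZH2 KO replicate 2 or any WT replicate (0.60 to 0.99, adjusted p 0.056 to 0.12). A coding exon at 6:140646756-140646894 had 77 counts in SAFB DKO, 1 in EZH2 KO and 56 in WT. The ratio of SAFB DKO to EZH2 KO was 24.7 (95% counting interval 4.31 to 989), and that of EZH2 KO to WT was 0.0853 (95% counting interval 0.00212 to 0.495), and its call against WT (adjusted p = 0.048) was lost with any library left out except EZH2 KO replicate 2 (adjusted p 0.053 to 0.15).

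**Figure D4:**
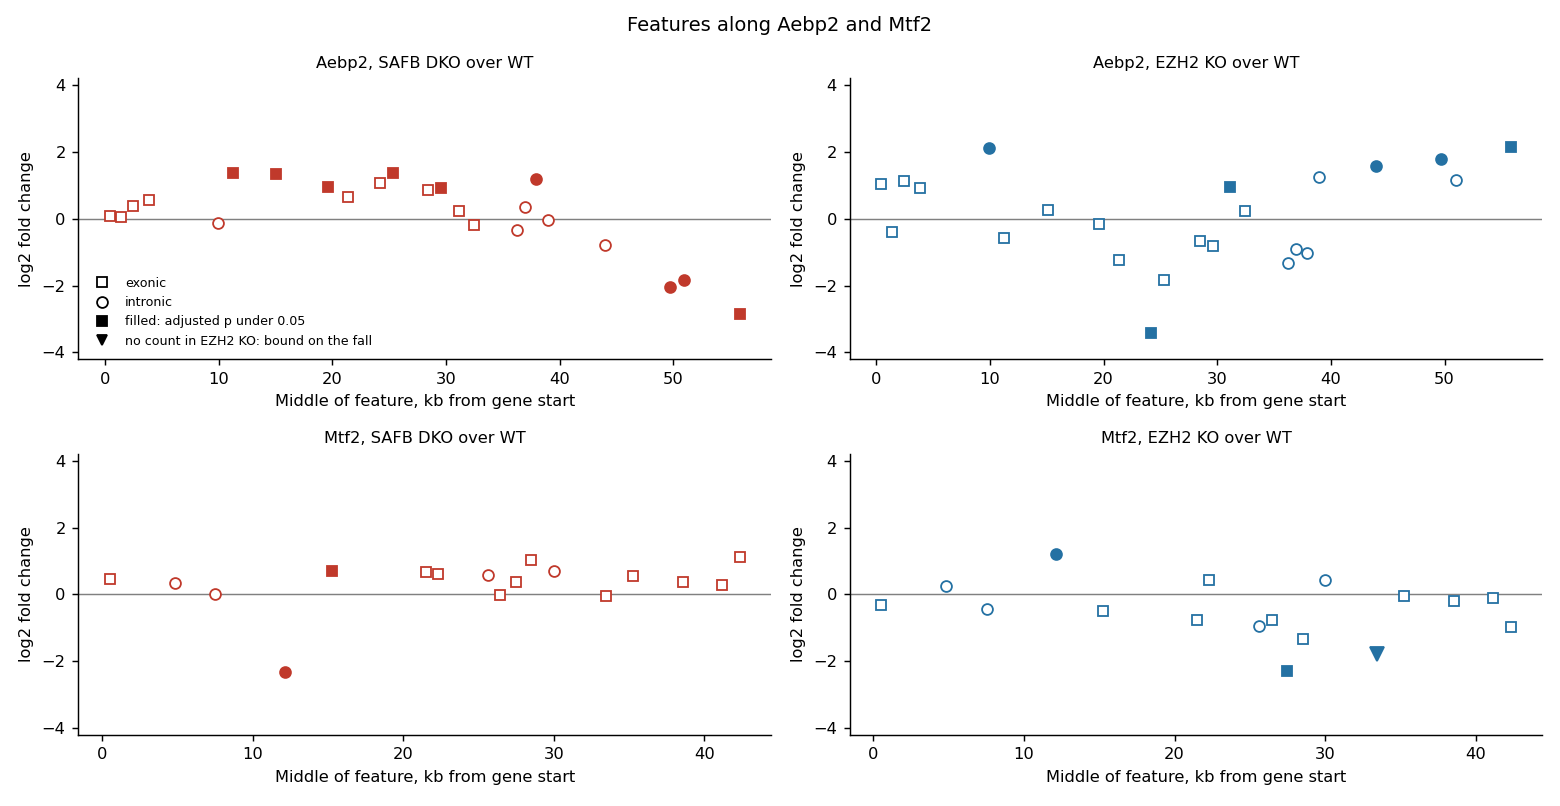
Log2 fold change of each tested feature of Aebp2 (upper row) and Mtf2 (lower row) in SAFB DKO over WT (left, red) and EZH2 KO over WT (right, blue) by distance from the gene start in kb; squares are exonic, circles intronic, filled ones have an adjusted p under 0.05, and the triangle is the bound for a feature with no count in EZH2 KO. The 4 last features of Aebp2 lie below 0 in SAFB DKO and above 0 in EZH2 KO, and 1 intronic feature of Mtf2 stands at -2.33 and 1.21.

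Mtf2 (5:108065674-108109004, plus strand) encodes the Polycomb-like protein that brings PRC2 to unmethylated CpG-rich DNA in embryonic stem cells. Its intronic features summed to 105 and 88.2 CPM in SAFB DKO, 500.2 and 648 CPM in EZH2 KO, and 279, 315 and 214 CPM in WT, and the 3 groups did not overlap. The sum fell in SAFB DKO (-1.48, SE 0.18, adjusted p = 2.0e-05) and rose in EZH2 KO (1.09, SE 0.17, adjusted p = 2.8e-04) against WT. SAFB DKO was lower than EZH2 KO by a log2 fold change of -2.57 (SE 0.20, adjusted p = 1.3e-07).

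Nearly all of this came from the interval around the inner start whose upstream bases are printed above. It had 49.1 and 41.7 CPM in SAFB DKO, 469.8 and 588 CPM in EZH2 KO, and 241, 270.1 and 174 CPM in WT. The log2 fold change was -2.33 in SAFB DKO against WT (SE 0.19, adjusted p = 1.4e-07), 1.21 in EZH2 KO against WT (SE 0.17, adjusted p = 2.2e-04) and -3.54 in SAFB DKO against EZH2 KO (SE 0.21, adjusted p = 1.6e-09). These 3 calls held under every alternative run. The interval held 46.9 ± 0.424% of the intronic counts of Mtf2 in SAFB DKO, 92.3 ± 2.19% in EZH2 KO and 84.4 ± 2.88% in WT. It was not in the authors' filtered list. The other 4 intronic features together had 56.2 and 46.6 CPM in SAFB DKO, 30.4 and 59.4 CPM in EZH2 KO, and 37.9, 45.2 and 40.5 CPM in WT, and none of them passed the test in SAFB DKO or EZH2 KO against WT. Without the interval the intronic sum was 0.32 in SAFB DKO against WT (adjusted p = 0.26; 1.3e-13 to 0.26 over the alternatives), 0.12 in EZH2 KO against WT (0.70; 1.0e-10 to 0.83) and 0.20 in SAFB DKO against EZH2 KO (0.51; 2.9e-39 to 0.51).

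The exons of Mtf2 moved the other way in SAFB DKO. Their sum was 163 and 162 CPM in SAFB DKO, 89.1 and 109 CPM in EZH2 KO, and 113, 120 and 123 CPM in WT, so SAFB DKO was above and EZH2 KO below every WT library. It rose in SAFB DKO (0.45, SE 0.13, adjusted p = 0.013) and was not called in EZH2 KO (-0.26, SE 0.13, adjusted p = 0.13; called without EZH2 KO replicate 2, -0.48 with adjusted p = 0.012). SAFB DKO exceeded EZH2 KO by 0.71 (SE 0.15, adjusted p = 8.2e-04). The rise was lost without SAFB DKO replicate 1 or 2 or WT replicate 1 (0.41 to 0.44, adjusted p 0.066 to 0.076). Under the comprehensive annotation the interval at the inner start counts as exonic, as does other RNA that is intronic in the basic set. Exonic Mtf2 then had -0.60 in SAFB DKO and 0.80 in EZH2 KO against WT (both called). Of the 12 exonic features, 10 had a positive log2 fold change in SAFB DKO against WT and 11 a negative one in EZH2 KO against WT. Their medians were 0.50 and -0.64, beside 0.28 and -0.56 over all exonic features. The coding exon at 5:108080872-108080987 had 13.9 ± 0.158 CPM in SAFB DKO, 6.02 ± 1.5 CPM in EZH2 KO and 8.54 ± 0.313 CPM in WT. It rose in SAFB DKO (0.71, SE 0.24, adjusted p = 0.046), a call lost with any SAFB DKO or WT library left out (0.66 to 0.71, adjusted p 0.12 to 0.19). A short coding exon at 5:108099089-108099219 had 31 counts in SAFB DKO, none in EZH2 KO and 49 in WT, at least 3.32-fold higher in SAFB DKO than in EZH2 KO and at least 3.42-fold lower in EZH2 KO than in WT. The adjusted p against WT was 0.042, and 0.058 to 0.14 without EZH2 KO replicate 1 or any WT replicate; that between SAFB DKO and EZH2 KO was 0.023, and 0.052 without SAFB DKO replicate 2. The highest exonic feature, at 5:108106534-108107170, had 62.8 ± 1.35 CPM in SAFB DKO, 48.1 ± 1.29 in EZH2 KO and 51.8 ± 0.727 in WT. It was not called (0.28, adjusted p = 0.27 in SAFB DKO against WT; 0.39, 0.097 in SAFB DKO against EZH2 KO), but SAFB DKO exceeded EZH2 KO with TMM on all features, column totals and DESeq2 (up to 0.84, adjusted p 9.2e-04 to 0.18 over the alternatives) and exceeded WT with column totals and DESeq2 (up to 0.53, 0.015 to 0.56).

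Phf19 (2:34893757-34914026, minus strand) encodes a Polycomb-like protein related to MTF2. Its exonic RNA rose in SAFB DKO and fell in EZH2 KO, the only one of the 6 genes whose exonic sum was called in both knockouts against WT. The 13 exonic features summed to 48.8 and 45.3 CPM in SAFB DKO, 12.3 and 15.3 CPM in EZH2 KO, and 19.0, 24.6 and 24.0 CPM in WT, and the groups did not overlap. The log2 fold change was 1.06 in SAFB DKO against WT (SE 0.17, adjusted p = 2.1e-04), -0.71 in EZH2 KO against WT (SE 0.19, adjusted p = 0.011) and 1.77 in SAFB DKO against EZH2 KO (SE 0.21, adjusted p = 6.3e-06). The last-exon interval at 2:34893890-34896089 held 71.9 ± 1.13% of the exonic counts in SAFB DKO, 66.3 ± 2.40% in EZH2 KO and 74.8 ± 2.61% in WT. It had 34.7 and 32.9 CPM in SAFB DKO, 7.97 and 10.4 CPM in EZH2 KO, and 14.7, 18.5 and 17.3 CPM in WT, and its log2 fold change against WT was 1.01 in SAFB DKO (SE 0.20, adjusted p = 0.0017) and -0.88 in EZH2 KO (SE 0.23, adjusted p = 0.018). The fall in EZH2 KO was lost without EZH2 KO replicate 1 or WT replicate 2 or 3 (-0.84 to -0.76, adjusted p 0.056 to 0.086). Leaving out features that cross an exon boundary keeps only 1 short exonic interval, at 2:34899588-34899740, and ended all 3 calls of the sum. The values were then 1.28 in SAFB DKO against WT (adjusted p = 0.13, and 1.2e-12 to 0.13 over the alternatives) and -0.26 in EZH2 KO against WT (0.84, and 5.3e-04 to 0.84). SAFB DKO against EZH2 KO had 1.53 (0.12, and 3.4e-20 to 0.12). All 11 tested exonic features had a positive log2 fold change in SAFB DKO against WT, with a median of 1.28 beside 0.28 over all exonic features. A coding exon at 2:34905447-34905631 had 62 counts in SAFB DKO, none in EZH2 KO and 21 in WT, at least 6.64-fold higher in SAFB DKO than in EZH2 KO. Introns held little: 33 and 20 counts in SAFB DKO, 18 and 26 in EZH2 KO, and 34, 25 and 34 in WT. Their sum was lower in SAFB DKO than in EZH2 KO (-1.38, SE 0.52, adjusted p = 0.032), a call lost without SAFB DKO replicate 1 or 2, EZH2 KO replicate 2 or WT replicate 1 (adjusted p 0.053 to 0.14). In EZH2 KO against WT it was 1.17 (SE 0.46, adjusted p = 0.058), called without EZH2 KO replicate 1 (1.38, 0.041). Of its 2 intronic features, the one at 2:34909588-34909864 had 8 and 0 counts in SAFB DKO, 10 and 21 in EZH2 KO, and 6, 9 and 22 in WT. SAFB DKO was lower than EZH2 KO there (-3.60, SE 1.06, adjusted p = 0.013; -2.65 and 0.067 without SAFB DKO replicate 2).

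Phf1 (17:26933052-26937908, plus strand), the third Polycomb-like gene, was barely covered. Its 2 exonic features had 65 and 61 counts in SAFB DKO, 5 and 14 in EZH2 KO, and 61, 65 and 41 in WT, or 3.12 ± 0.225, 1.48 ± 1.03 and 2.67 ± 0.474 CPM. No sum passed the test, with log2 fold changes of 0.22 (SE 0.40, adjusted p = 0.69) in SAFB DKO and -0.86 (SE 0.50, adjusted p = 0.18) in EZH2 KO against WT. SAFB DKO against EZH2 KO had 1.09 (SE 0.52, adjusted p = 0.087). Without EZH2 KO replicate 2 the comparisons with EZH2 KO were called (-1.88 against WT, adjusted p = 0.022, and 2.10 for SAFB DKO against EZH2 KO, 0.0082). The higher feature, at 17:26936831-26937808, had 2.84 ± 0.401 CPM in SAFB DKO, 1.00 ± 0.358 in EZH2 KO and 2.21 ± 0.489 in WT; SAFB DKO exceeded EZH2 KO (1.49, adjusted p = 0.044), a call lost with any library left out except EZH2 KO replicate 2 (1.22 to 1.69, adjusted p 0.063 to 0.13).

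Epop (11:97627389-97629702, minus strand) encodes a protein that links PRC2 to Elongin B and C and has a single exon, covered by 1 feature. It had 251 and 290.2 CPM in SAFB DKO, 197 and 194 CPM in EZH2 KO, and 220, 187 and 223 CPM in WT. SAFB DKO was above every WT library and EZH2 KO within their range. Among sums it rose in SAFB DKO (0.37, SE 0.13, adjusted p = 0.036) and exceeded EZH2 KO by 0.47 (SE 0.14, adjusted p = 0.012), but as a feature, adjusted over more tests, it was not called against WT (adjusted p = 0.073; 0.026 to 0.031 without EZH2 KO replicate 1 or 2). The call against WT was lost without SAFB DKO replicate 2 or any WT replicate (0.23 to 0.39, adjusted p 0.054 to 0.32), and that against EZH2 KO without SAFB DKO replicate 2 (0.40, adjusted p = 0.074).

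Whether introns and exons of a gene changed differently was tested directly on the log2 ratio of intronic to exonic counts (limma, 6566 genes). Mtf2, Aebp2 and Phf19 lost intronic relative to exonic RNA in SAFB DKO and gained it in EZH2 KO, and Jarid2 did the opposite. The ratio fell in SAFB DKO against WT by 1.91 for Mtf2 (SE 0.17, adjusted p = 4.2e-06), by 0.74 for Aebp2 (SE 0.20, adjusted p = 0.0085) and by 1.28 for Phf19 (SE 0.49, adjusted p = 0.047), and rose by 0.42 for Jarid2 (SE 0.10, adjusted p = 0.0044). In EZH2 KO against WT it rose by 1.37 for Mtf2 (SE 0.17, adjusted p = 1.4e-04), 0.97 for Aebp2 (SE 0.20, adjusted p = 0.0027) and 1.88 for Phf19 (SE 0.49, adjusted p = 0.010), and fell by 0.36 for Jarid2 (SE 0.10, adjusted p = 0.014). Between SAFB DKO and EZH2 KO the differences were -3.28, -1.72, -3.16 and 0.78 for Mtf2, Aebp2, Phf19 and Jarid2, all called. Over all genes the ratio fell in 43.4% and rose in 4.71% in SAFB DKO against WT, rose in 31.6% and fell in 8.13% in EZH2 KO against WT, and was higher in 11% and lower in 55.7% in SAFB DKO against EZH2 KO, so the direction of Jarid2 was the rarer one in each comparison. The medians over all genes were -0.75, 0.41 and -1.19.

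The intronic share of Mtf2 was 37.3 ± 2.81% in SAFB DKO, 85.2 ± 0.513% in EZH2 KO and 69.0 ± 4.81% in WT. That of Aebp2 was 19.0 ± 4.27%, 43.3 ± 1.61% and 28.0 ± 2.01%, and that of Phf19 2.66 ± 0.473%, 19.6 ± 2.22% and 6.35 ± 1.59%, in the same groups. Without its inner-start interval the ratio of Mtf2 was no longer called (-0.13 in SAFB DKO and 0.32 in EZH2 KO against WT). With comprehensive exons the ratio of Mtf2 had the other sign and was called (1.24 in SAFB DKO and -1.01 in EZH2 KO against WT). Leaving out features that cross an exon boundary ended the calls of Aebp2 and Phf19 in both knockouts against WT. In EZH2 KO their adjusted p was then 0.093 and 0.19. Calling a feature exonic only where most of it is exon also ended their calls in SAFB DKO against WT. Without its highest coding interval the fall of Jarid2 in EZH2 KO was -0.15 (adjusted p = 0.20; 0.0051 to 0.20 over the alternatives), and without EZH2 KO replicate 1 it was -0.28 (0.053). In SAFB DKO against WT, leaving out SAFB DKO replicate 2 ended the calls of Jarid2 (0.32, adjusted p = 0.075), Aebp2 (-0.46, 0.11) and Phf19 (-1.10, 0.18), and that of Phf19 was also lost without SAFB DKO replicate 1 or any WT replicate (adjusted p 0.055 to 0.16).

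**Figure D5:**
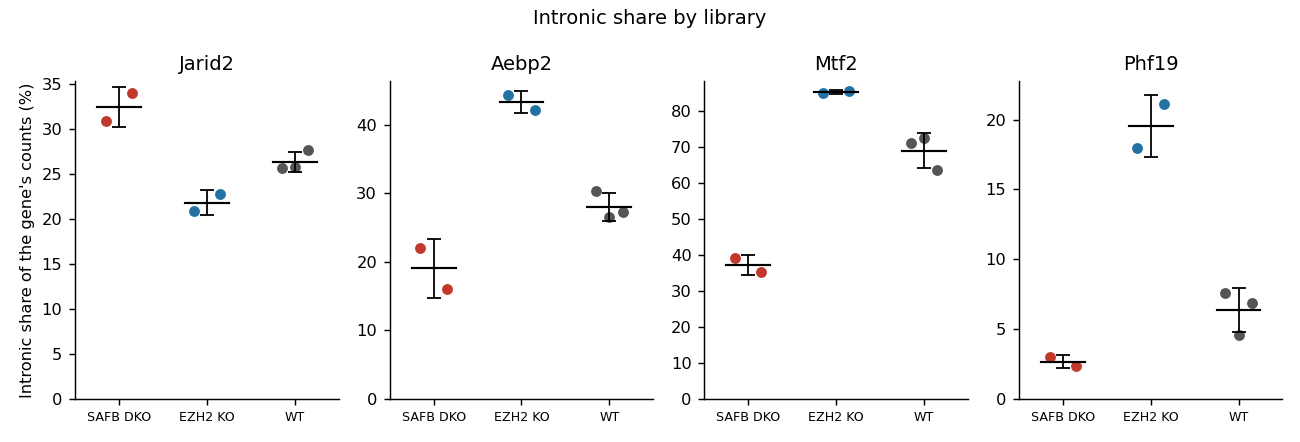
Intronic share of each gene's counts (%) in each library, with SAFB DKO, EZH2 KO and WT from left to right; horizontal lines are means and bars SD. Jarid2 is highest in SAFB DKO (32.4%), and Aebp2, Mtf2 and Phf19 are highest in EZH2 KO (43.3%, 85.2% and 19.6%).

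Other genes of the Polycomb system showed no single pattern. Against WT, 20.0% of all exonic sums rose and 21.8% fell in SAFB DKO, and 18% rose and 27.2% fell in EZH2 KO. Of all intronic sums 0.840% rose and 45.1% fell in SAFB DKO, and 26.8% rose and 9.11% fell in EZH2 KO. Of 6 PRC2 core genes, exonic sums rose for 2 in SAFB DKO against WT, Ezh1 (1.03) and Rbbp4 (0.67), and fell for 3 in EZH2 KO against WT, namely the targeted Ezh2 (-8.50), Rbbp4 (-1.54) and Rbbp7 (-1.25). Their median log2 fold change was 0.29 in SAFB DKO and -0.90 in EZH2 KO, beside 0.07 and -0.19 over all exonic sums. The median in EZH2 KO includes the targeted Ezh2, whose fall follows from the genotype. Exonic Ezh2 had 0.07 in SAFB DKO (adjusted p = 0.78), and its intronic sum fell there (-0.83, adjusted p = 0.0092) and in EZH2 KO (-6.16). Exonic Eed had 0.23 in SAFB DKO and -0.55 in EZH2 KO, and Suz12 0.15 and 0.25, and neither passed the test; intronic Suz12 rose in SAFB DKO (0.73) and fell in EZH2 KO (-0.84). Of 4 tested further partners, both Lcor (-1.27) and Lcorl (-1.64), which join the Polycomb-like form, fell in SAFB DKO. Of 20 tested PRC1 genes 7 exonic sums rose and 1 fell in SAFB DKO, and 10 of 16 intronic sums fell and none rose (median -0.94, beside -0.93 over all intronic sums); Phc2 (-3.07) and Pcgf5 (-2.91) fell most. In EZH2 KO 3 exonic sums of PRC1 rose and 6 fell, and 6 intronic sums rose and 1 fell. Of 8 enzymes that counter PRC2 or PRC1 marks, 3 exonic sums rose and 4 fell in SAFB DKO, and 3 rose and 3 fell in EZH2 KO; of 12 trithorax genes 2 rose and 4 fell in SAFB DKO, and 6 rose and 5 fell in EZH2 KO. In EZH2 KO 1 of the 4 partners rose, Lcor (1.46), and 2 fell, the Elongin genes Eloc (-2.28) and Elob (-0.84), which encode the proteins EPOP binds. Intronic sums of the counter enzymes and of trithorax genes, 6 tested in each list, fell for 1 of each in SAFB DKO and for 3 and 1 in EZH2 KO, where 2 trithorax sums rose. SAFB DKO exceeded EZH2 KO in exonic sums of 5 PRC2 core, 2 partner, 8 PRC1, 4 counter-enzyme and 4 trithorax genes and was lower in 0, 2, 4, 4 and 6. Among the 5 core genes is the targeted Ezh2 (8.57), a call fixed by the genotype. Over all exonic sums 37.1% were higher and 28.9% lower in that comparison. Whether the counts of any list departed from the shares over all genes was not tested.

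Across the 7 libraries the summed RNA of each member was closest to that of other genes by the correlation of log2 CPM among 16721 genes, which follows group differences and library depth and is given as a description. These were Tbrg1 (r = 0.998) and Zwilch (0.997) for Phf19, Med12l (0.997) and Snx29 (0.997) for Mtf2, and Tert (0.980) for Aebp2. For Epop they were Erf (0.979) and Atp6ap2 (0.974), for Jarid2 Gps1 (0.978) and Paxbp1 (0.953), and for Phf1 Fgf3 (0.998) and Hace1 (0.993).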

How the data were processed

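RNA precipitated with an EZH2 antibody was measured in 7 libraries of 3 genotypes (SAFB DKO n = 2, EZH2 KO n = 2, WT n = 3). The authors deposited raw counts of reads per feature, which featureCounts 2.0.3 had assigned, reverse-stranded, to mm10 intervals, per the file headers; by their names these were called on pooled WT precipitates. For the aligner and peak caller no source used here gives a name. The deposited lengths of features are bases and gave the CPM per kb and the bases past the end of a gene. Interval lengths of the peak lists were not used. Another 3 columns, of a control antibody, match no sample here and were left out.

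Features were assigned to GENCODE M21 genes on their strand; sums excluded 7446 features that lay in 2 or more genes. Overlapping and near-identical genes can share reads. Counts per feature (193862 tested, filterByExpr) and exonic and intronic sums per gene (15237 and 9881 tested) were each fitted with edgeR 4.0.16 (quasi-likelihood, R 4.3.3, 7 libraries in 1 fit by group, Benjamini-Hochberg threshold 0.05 over all rows). Library sizes were column totals times TMM factors from features outside the filtered list. Each SE of an edgeR value is the absolute log2 fold change divided by the square root of the F statistic. The ratio of intronic to exonic counts (pseudocount 0.5, mean of at least 20 counts in both) was tested with limma 3.58.1. Replicates were clones or the parent line, so p-values measure the spread between these; replicates of a group correlated at 0.867 to 0.968 in log2 CPM, and none agreed within sampling noise. Fits were tested on simulated data for SAFB DKO against WT only. The simulation used the same spread in every library and placed changes in rows with a mean of at least 20 counts. It therefore does not cover the comparisons with EZH2 KO or features with few counts. The members and gene lists were chosen with earlier results of these data known. Named features are, per gene and class, the one with the highest mean CPM and, per comparison, the called one with the largest rise and the largest fall; from other lists, at most the 2 largest rises and falls, and Ezh2, Eed and Suz12. Genes closest to a member are the 2 with the highest correlation; 1 of these for Aebp2 is not reported here. Features of Aebp2 beyond 43 kb and the parts of Jarid2 were singled out after their values were seen. Alternatives were TMM on all features, column totals, DESeq2 1.42.0, no filter, only the groups compared, other exon rules, a replicate block and leaving out each library. Intervals and bounds cover counting error only. Sequences are from RefSeq (GRCm38.p6) and GENCODE M21 transcripts.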

Additional observations from a re-analysis of the deposited data

How the results depend on the processing

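Of 1504 single values under alternatives, 1297 stayed called in the same direction or stayed uncalled, 147 lost and 46 gained a call, and 14 reversed. Among the 1297 were 33 uncalled values that changed sign. Of 144 counts of calls, 114 stayed within 1.5 times. The cause of the others was not tested unless stated. Called member features in SAFB DKO against WT were 14, and 22 with TMM on all features, 31 with column totals, 28 with DESeq2 and 32 with only the 2 groups fitted. In EZH2 KO against WT they were 19, with a replicate block 5 and by column totals 31. In SAFB DKO against EZH2 KO they were 50, and 78 with column totals and 32 with only the 2 groups fitted. Called sums in EZH2 KO against WT were 3, and 5 with TMM on all features and 6 with column totals. Leaving out features that cross an exon boundary gave 2 called sums in SAFB DKO against WT, beside 6. It gave 1 called ratio in each knockout against WT, beside 4. Under that rule Jarid2 kept no exonic feature, so its exonic sum and its ratio were not tested. Calling a feature exonic only where most of it is exon gave 2 called ratios in SAFB DKO against WT. Leaving out 1 library at a time gave 4 to 32, 6 to 57 and 35 to 79 called features, 3 to 6, 3 to 6 and 6 to 8 called sums, and 1 to 4, 3 to 4 and 4 to 4 called ratios in SAFB DKO against WT, EZH2 KO against WT and SAFB DKO against EZH2 KO.

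Exonic Jarid2 reversed to 0.30 in SAFB DKO against EZH2 KO with column totals and to 0.23 in SAFB DKO against WT with DESeq2, and exonic Aebp2 to -0.20 in SAFB DKO against EZH2 KO without features that cross an exon boundary. With comprehensive GENCODE exons, an alternative chosen after seeing the data, the inner-start interval of Mtf2 turns exonic. Other intronic RNA of Mtf2 turns exonic too, since the intronic sum differs from that without the interval. The exonic sum was -0.60 in SAFB DKO against WT, 0.80 in EZH2 KO against WT and -1.40 in SAFB DKO against EZH2 KO. In the same order the intronic sum was 0.64, -0.12 and 0.76, and the ratio 1.24, -1.01 and 2.26. Without that interval, also chosen after seeing the data, the intronic sum was 0.32 in SAFB DKO against WT and 0.20 in SAFB DKO against EZH2 KO. Same-numbered libraries of EZH2 KO and WT did not deviate together from their group means (r = 0.036 and 0.007). The deviations of the 2 EZH2 KO libraries mirror each other, so this check cannot exclude a shared preparation. With the replicate block 3 sums and 4 ratios were called in EZH2 KO against WT, as without it. Depth limits most features: 110 of 152 were under 5 CPM, and EZH2 KO had the lowest totals.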
